A study of Mus musculus with 5 samples.

Results

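Pluripotency and germ cell specification rest on a small set of regulators, and 10 of them are described here by the CpG methylation of their CpG islands and island shores: Pou5f1, Sox2, Klf4, Esrrb, Tfcp2l1, Tbx3, Prdm1, Prdm14, Tfap2c and Kit. A CpG island is a stretch rich in CpG dinucleotides that often holds a gene's start, and a shore is the flank beside it, here about 2 kb long. Every island and shore inside a gene or within 2 kb of its RefSeq ends was taken, whatever its level. This gave 30 regions, of which 27 (10 islands and 17 shores) were listed in all 5 libraries, out of 14214 islands and 16696 shores listed in all 5. At least 1 region in all 5 libraries was found for 9 of the 10 genes, and 7 genes had a shore. Pou5f1 had no island or shore within 2 kb.

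The levels come from reduced representation bisulfite sequencing, which cuts genomic DNA with the enzyme MspI and reads which cytosines are methylated in the CpG-rich fragments. All groups were C57BL6 mouse cells with 1 library each. Female ESC is a female embryonic stem cell line and pESC a parthenogenetic one, whose genome comes from an egg with no sperm; both were kept on feeder cells, in serum and LIF. PGC are primordial germ cells taken from fetal gonads at stage E12.5 with SSEA1 magnetic beads. ESC-PGCLC and pESC-PGCLC are germ cell-like cells made from each line through 46 h of epiblast-like culture with activin A and bFGF and 4 days of floating culture with BMP4, LIF, SCF and EGF, then sorted for CD61 and SSEA1 together. The number of lines, clones or embryos behind a library, and the sex of the fetuses, are not stated by the labels. With 1 library a group there is no replicate error and no p-value, and each difference compares libraries, not conditions. Read depth is unknown, so no counting interval can be given either. A level in a mixed population cannot tell the share of cells from the share of alleles that are methylated.

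Methylated promoter CpGs generally accompany silence of a gene, while islands at the starts of developmental genes usually stay unmethylated whether the gene is active or not. Shores vary more between cell types than islands do. In the mouse, Pou5f1, Sox2 and Klf4 hold the pluripotent state, Esrrb, Tfcp2l1 and Tbx3 belong to its naive network, and Prdm1, Prdm14 and Tfap2c are the transcription factors that set germ cell fate in the epiblast.

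The sequence before a gene's start shows how different these genes are in CpG content. RefSeq windows of 250 bases before a start (GRCm38.p6, the assembly of mm10) were found for 7 of the 10 genes. Those of Sox2, Prdm1, Esrrb and Pou5f1 are printed because they span the cases below: an island with hardly any methylation, an island beside the most methylated shore, a start that falls in a shore, and a gene with no measured region. Capitals mark each CpG, and each sequence reads 5′ to 3′ along the gene's strand.
Sox2, chr3:34649745-34649994, plus strand: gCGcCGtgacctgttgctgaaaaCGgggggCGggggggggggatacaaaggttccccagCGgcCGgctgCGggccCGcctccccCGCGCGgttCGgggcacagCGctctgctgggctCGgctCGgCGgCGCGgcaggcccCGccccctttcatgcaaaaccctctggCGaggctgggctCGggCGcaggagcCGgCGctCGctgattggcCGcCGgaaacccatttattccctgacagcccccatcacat
Prdm1, chr10:44458749-44458998, minus strand: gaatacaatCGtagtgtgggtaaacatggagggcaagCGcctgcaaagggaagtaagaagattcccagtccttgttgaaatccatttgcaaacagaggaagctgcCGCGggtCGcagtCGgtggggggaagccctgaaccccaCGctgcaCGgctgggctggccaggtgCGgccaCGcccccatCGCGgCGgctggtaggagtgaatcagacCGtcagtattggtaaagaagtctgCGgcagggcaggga
Esrrb, chr12:86421394-86421643, plus strand, before the second start: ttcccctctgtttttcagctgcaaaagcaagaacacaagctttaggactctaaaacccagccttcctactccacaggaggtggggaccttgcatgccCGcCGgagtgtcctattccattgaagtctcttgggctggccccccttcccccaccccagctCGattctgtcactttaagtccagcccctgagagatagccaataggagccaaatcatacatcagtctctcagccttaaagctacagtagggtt
Pou5f1, chr17:35505782-35506031, plus strand, before the first start: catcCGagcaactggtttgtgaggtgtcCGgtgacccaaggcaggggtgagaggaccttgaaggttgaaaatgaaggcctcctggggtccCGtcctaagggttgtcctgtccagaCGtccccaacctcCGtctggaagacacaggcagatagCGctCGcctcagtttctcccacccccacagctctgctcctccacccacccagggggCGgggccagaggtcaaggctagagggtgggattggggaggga

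The Sox2 window held 27 CpGs, and all 250 of its bases lay in a listed island. The Prdm1 window held 15 CpGs with 145 bases in an island. The Esrrb window held 3 CpGs and lay wholly in a shore, and the Pou5f1 window held 8 CpGs, outside any region listed for these genes. Over 32851 RefSeq windows the median was 6 CpGs. The MspI site CCGG, which reads the same on both strands, occurred in 47.1% of those windows, 3 times in that of Sox2, once in those of Esrrb and Pou5f1, and 0 times in that of Prdm1.

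Islands of the regulators were close to unmethylated in every library. The 10 islands had levels between 0% and 2.50%, and their means were 1.40% in Female ESC, 1.37% in pESC, 1.60% in PGC, 1.69% in ESC-PGCLC and 1.68% in pESC-PGCLC. All 10 had a mean under 5%, as did 91.6% of all 14214 islands. The range over the 5 libraries was under 1 point at 8 of the 10 islands, against 69.7% of all islands. The plot of island levels shows the 5 libraries crowded together at each gene other than Prdm1 and Tfcp2l1.

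**Figure D1:**
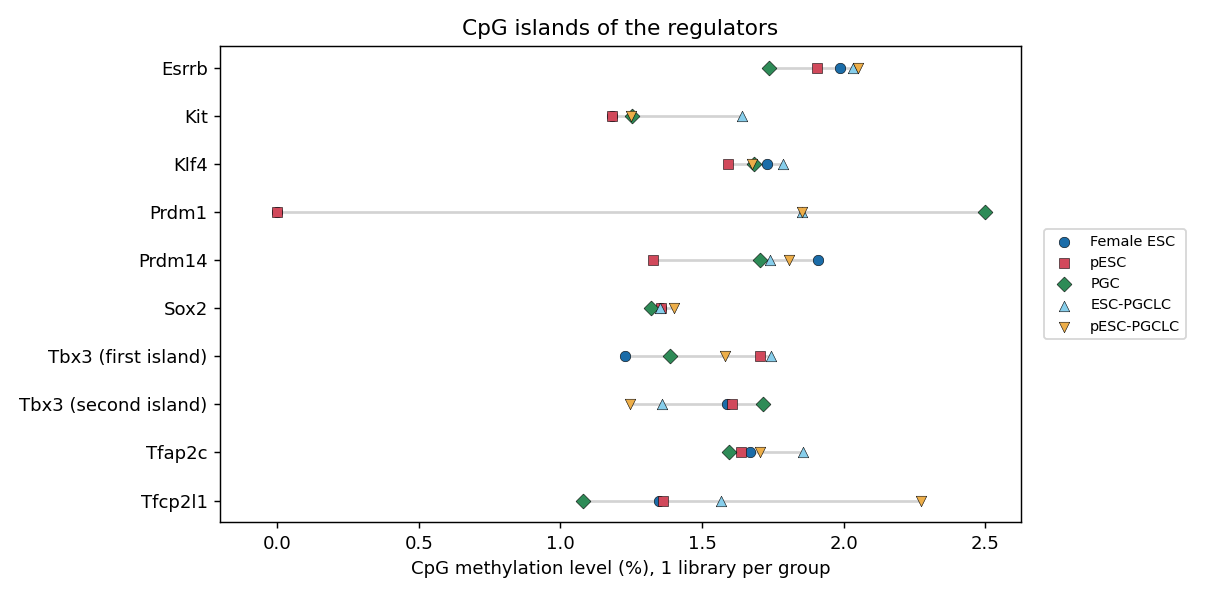
CpG methylation level (percent, horizontal axis) of the 10 islands of 9 regulators (vertical axis), 1 point per library and a grey line over the range. No point is above 2.50%, and the widest lines are those of Prdm1 (0% to 2.50%) and Tfcp2l1 (1.08% to 2.27%).

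Among the core pluripotency factors, Sox2, the partner of Pou5f1 on DNA, had the narrowest range of the 10 islands. Its island (chromosome 3, 34648829 to 34651366) covers the start and lies within the noncoding gene Sox2ot. It stood at 1.36% in Female ESC, 1.36% in pESC, 1.32% in PGC, 1.35% in ESC-PGCLC and 1.40% in pESC-PGCLC, a range of 0.0810 points. The shore before it was listed at 0 in pESC, PGC and ESC-PGCLC and was not listed in the other libraries. Klf4, a zinc finger factor of the naive state, has its start inside an island (chromosome 4, 55530171 to 55533292) that also overlaps the gene model Gm12506. That island was at 1.73% in Female ESC, 1.59% in pESC, 1.68% in PGC, 1.79% in ESC-PGCLC and 1.68% in pESC-PGCLC. The Klf4 shore, which lies inside the gene, was higher than the island in each library, at 4.12%, 5.74%, 4.63%, 3.97% and 5.43% in the same order. The pESC line and the cells made from it had the highest levels at this shore, by less than 2 points.

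Esrrb, an orphan nuclear receptor of the naive network, had an island and 3 shores with unlike patterns. The gene has a pair of RefSeq starts, and the island (chromosome 12, 86421659 to 86422902) begins 15 bp after the second of them. It was at 1.99% in Female ESC, 1.90% in pESC, 1.74% in PGC, 2.03% in ESC-PGCLC and 2.05% in pESC-PGCLC. The shore before it (86419658 to 86421658) holds the second start and the window printed above. It stood at 7.87% in Female ESC, 9.34% in pESC, 3.95% in PGC, 6.08% in ESC-PGCLC and 4.49% in pESC-PGCLC. Both stem cell lines were thus above both germ cell-like libraries, and PGC was the lowest. The shore after the island (86422902 to 86424903) had another order, with 7.44% in Female ESC, 9.61% in pESC, 10.2% in PGC, 9.74% in ESC-PGCLC and 9.94% in pESC-PGCLC. At this shore Female ESC alone stood below the others, which lay within 0.613 points of each other.

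The shore deep inside Esrrb (86468029 to 86470029, starting 46385 bp after the second start) was the regulator region in which PGC stood furthest above the rest. It was at 5.90% in Female ESC, 5.50% in pESC, 14.6% in PGC, 4.08% in ESC-PGCLC and 6.22% in pESC-PGCLC. Without PGC the range was 2.15 points, and with it 10.54 points. This direction is the opposite of that of the mean over all shores, which was lowest in PGC (11.3%) and highest in Female ESC (14.3%). The median over all shores was not lowest in PGC: it was 4.31% there, 4.23% in pESC and 4.35% in Female ESC. The island that this shore flanks was not among the listed regions. Its non-CpG (CHH) level, a measure of unconverted cytosines, was between 0.482% and 0.739% in the 5 libraries.

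Tfcp2l1, a transcription factor downstream of LIF signalling, had an island over its start (chromosome 1, 118627821 to 118628282). It stood at 1.35% in Female ESC, 1.36% in pESC, 1.08% in PGC, 1.57% in ESC-PGCLC and 2.27% in pESC-PGCLC. Its 2 shores were not listed in all 5 libraries: the shore before the start was at 8.77% in pESC, 6.11% in PGC, 4.13% in ESC-PGCLC and 5.02% in pESC-PGCLC, and the shore after it was listed at 0 in PGC and ESC-PGCLC only.

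Tbx3, a T-box factor that acts in both the naive network and early lineage choice, had 2 islands and 5 shores. The island at the lower-coordinate end (chromosome 5, 119670093 to 119671401), which overlaps the antisense gene Tbx3os1, was at 1.23% in Female ESC, 1.71% in pESC, 1.39% in PGC, 1.74% in ESC-PGCLC and 1.58% in pESC-PGCLC. The second island (119680407 to 119681017), inside the gene, was at 1.59%, 1.61%, 1.72%, 1.36% and 1.25% in the same order. The first 4 shores by coordinate had means between 1.54% and 3.81%. Of these, the shore from 119681017 was at 0.850% in Female ESC, 1.41% in pESC, 3.87% in PGC, 3.27% in ESC-PGCLC and 1.24% in pESC-PGCLC.

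The last Tbx3 shore (119682954 to 119684955), which covers the higher-coordinate end of the gene, separated Female ESC from the other libraries. It was at 3.23% in Female ESC, 11.4% in pESC, 10.9% in PGC, 10.3% in ESC-PGCLC and 10.9% in pESC-PGCLC. The 4 libraries other than Female ESC lay within 1.13 points, while Female ESC was 7.05 points below the cells made from it. The change with induction was 7.05 points in the biparental line and -0.557 points in the parthenogenetic line, and the difference between these changes, -7.61 points, was not tested. The CHH level of this shore was 1.23% in Female ESC and between 0.187% and 0.605% in the other libraries. With the CHH level taken out, pESC was 9.22 points above Female ESC, against 8.18 points without that step. Over all shores the CpG mean was highest in Female ESC (14.3%), while the median was highest in pESC-PGCLC (4.54%).

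Prdm1, which encodes Blimp1, the repressor that shuts down the somatic programme in germ cell precursors, had the most methylated region of the set. Its short island (chromosome 10, 44458550 to 44458893, minus strand) covers the RefSeq start whose window is printed above. The island was listed at 0 in both stem cell lines, at 2.50% in PGC and at 1.85% in both germ cell-like libraries. Some of its non-CpG levels were as large, with CHH at 3.28% in ESC-PGCLC and 1.85% in pESC-PGCLC, and CHG at 3.57% in Female ESC. The other CHH and CHG levels were 0. Whether the CpG levels differ from unconverted cytosines was not tested. The shore next to this island (44456549 to 44458549), which runs from 199 to 2199 bp after the start, was at 35.7% in Female ESC, 27.1% in pESC, 21.2% in PGC, 25.3% in ESC-PGCLC and 24.0% in pESC-PGCLC. Methylation thus went from almost none to over 20% within the span of the island and its shore in each library, and Female ESC stood above the other 4, which lay within 5.91 points. The order of the 5 libraries at this shore was the order of the means of all shores, which ran from 14.3% in Female ESC through 12.9% in pESC and then both germ cell-like libraries to 11.3% in PGC. Relative to Female ESC, PGC kept 59.5% of the level at the Prdm1 shore and 79.2% of the mean over all shores; the corresponding values for ESC-PGCLC were 70.8% and 87.2%. The other Prdm1 shore (44527427 to 44529427), at the far upstream end of the gene's RefSeq span, was between 1.89% in Female ESC and 3.46% in ESC-PGCLC.

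**Figure D2:**
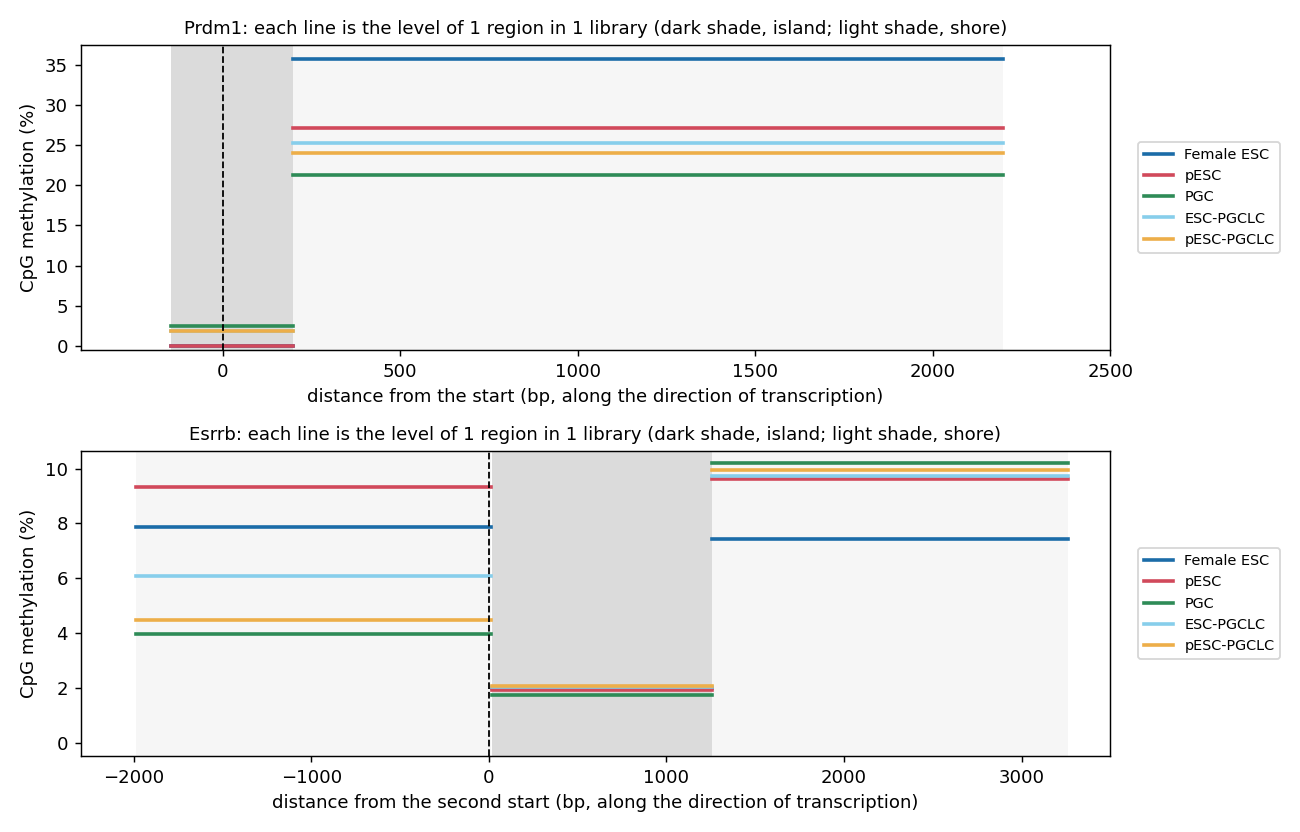
CpG methylation (percent, vertical axis) of each island (dark shade) and shore (light shade) plotted against distance in bp from the start of Prdm1 (top) and the second start of Esrrb (bottom); each coloured line is 1 region in 1 library. At Prdm1 all libraries step from 2.50% or less over the start to between 21.2% and 35.7% after it, and at Esrrb PGC is the lowest library before the island (3.95%) and the highest after it (10.2%).

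The remaining germ cell factors and the receptor had little methylation within 2 kb. Prdm14, which restrains epiblast genes and de novo methylation in germ cell precursors, had an island (chromosome 1, 13126298 to 13126669) at 1.91% in Female ESC, 1.33% in pESC, 1.71% in PGC, 1.74% in ESC-PGCLC and 1.81% in pESC-PGCLC. Its 2 shores ran from 1.42% to 3.26%. Tfap2c, the AP-2 gamma factor that acts with Prdm1, had an island (chromosome 2, 172549381 to 172551833) at 1.67%, 1.64%, 1.60%, 1.86% and 1.70% in the same order of libraries, and 3 shores between 1.58% and 2.22%. Kit, the receptor for stem cell factor (SCF, a cytokine of the induction medium) on migrating germ cells, had an island over its start (chromosome 5, 75574820 to 75576005). The Kit island was at 1.18% in Female ESC, 1.18% in pESC, 1.25% in PGC, 1.64% in ESC-PGCLC and 1.25% in pESC-PGCLC. The Kit shore before the start was at 0.571%, 1.09%, 1.17%, 0.560% and 0.400%, below the island in each library. Kit was the exception in this respect: of the 7 genes with both kinds of region, the other 6 had a shore mean above their island mean in every library.

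**Figure D3:**
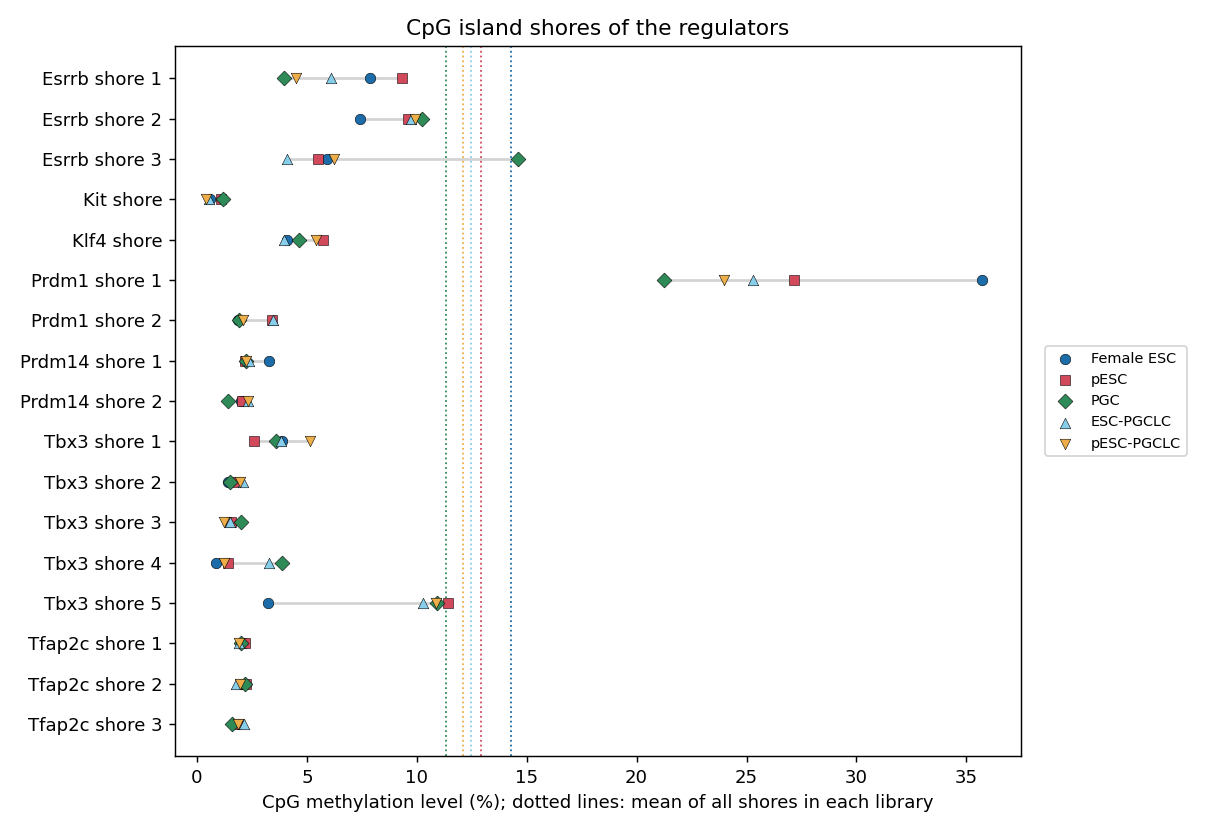
CpG methylation level (percent, horizontal axis) of the 17 shores of 7 regulators, numbered by increasing coordinate within a gene, 1 point per library; dotted lines give the mean of all 16696 shores in each library. Prdm1 shore 1 lies between 21.2% and 35.7%, the third Esrrb shore has PGC alone at 14.6%, and the fifth Tbx3 shore has Female ESC alone at 3.23%.

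Over all 17 shores the mean was 5.04% in Female ESC, 5.35% in pESC, 5.24% in PGC, 4.98% in ESC-PGCLC and 4.90% in pESC-PGCLC, and the order of the libraries was not that of all shores. A mean under 5% was found at 12 of the 17 shores (70.6%), against 53.6% of all shores. A range of at least 10 points over the 5 libraries was found at 2 of the 17 (11.8%), against 20.6% of all shores. Regions of 1 gene are not independent: 3 pairs of regions overlap at Tbx3 and 3 at Tfap2c, so some CpGs are counted more than once. In the CHH context the 17 shores were between 0.187% and 1.23% and the 10 islands between 0% and 3.28%.

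The comparison of pESC with Female ESC sets a line with only maternal chromosomes beside a biparental one. With 1 library of each, parental origin cannot be told apart from other differences between the lines. The label check below also does not by itself show a normal biparental pattern in Female ESC. A region was counted as different at 10 points or more. None of the 10 islands and none of the 17 shores reached that size, where 1.09% of all islands and 5.66% of all shores did. Of the shores, 12 were higher and 5 lower in pESC, with a median difference of 0.236 points, against -0.425 points over all shores, of which 61.2% were lower. The Prdm1 shore, with a difference of -8.56 points, and the last Tbx3 shore, with 8.18 points, were the only regulator regions at least 5 points apart. The median island difference was near 0, with 4 islands higher and 5 lower.

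Induction of each line to germ cell-like cells was compared next. In the biparental line the shore after the Prdm1 start was lower in ESC-PGCLC than in Female ESC, with a difference of -10.4 points, the only regulator region past 10 points. Of all regions, 1.01% of islands and 7.48% of shores differed by that much. The difference at the Prdm1 shore was -5.86 points after the overall shift of the shores was taken out as 1 factor, a setting under which no regulator region was counted. In the parthenogenetic line no regulator region reached 10 points between pESC-PGCLC and pESC, where 0.408% of islands and 3.12% of shores did. The Prdm1 shore differed by -3.17 points and the shore over the second Esrrb start by -4.86 points.

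Germ cell-like cells were then set beside germ cells of the fetus. Between ESC-PGCLC and PGC the deep Esrrb shore was lower in ESC-PGCLC (-10.54 points), the only regulator region counted, against 1.10% of all islands and 4.54% of all shores. With the overall shift of shores taken out the difference was -12.0 points. Between pESC-PGCLC and PGC none was counted, against 0.373% of islands and 2.14% of shores, and the difference at the same Esrrb shore was -8.39 points. At the Prdm1 shore ESC-PGCLC was 4.05 points and pESC-PGCLC 2.74 points above PGC. These comparisons share the PGC library.

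Between the germ cell-like libraries the regulators' shores differed least. No region reached 10 points, against 0.549% of islands and 2.11% of shores, and the differences of pESC-PGCLC from ESC-PGCLC ran from -2.03 to 2.15 points over shores and from -0.391 to 0.704 points over islands. The mean absolute difference over the 17 shores was 0.773 points for this pair, the smallest of the 10 pairs of libraries, and 2.65 points for Female ESC and PGC, the largest. Over all shores the same pairs were the extremes, with 2.03 and 4.39 points. Over the 10 islands the closest pair was Female ESC and pESC, at 0.135 points, against 0.176 points for the germ cell-like pair.

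PGC and Female ESC, the ends of that scale, differed by at least 10 points at 1 regulator region, the Prdm1 shore, which was lower in PGC (-14.5 points). Of all islands 2.51% and of all shores 16.0% differed by as much. With the overall shift of shores taken out the Prdm1 difference was -7.06 points and no region was counted. The deep Esrrb shore was 8.72 points and the last Tbx3 shore 7.70 points higher in PGC. Of the 17 shores 10 were higher and 7 lower in PGC, with a median difference of 0.0802 points, where 64.3% of all shores were lower, with a median of -0.620.

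**Figure D4:**
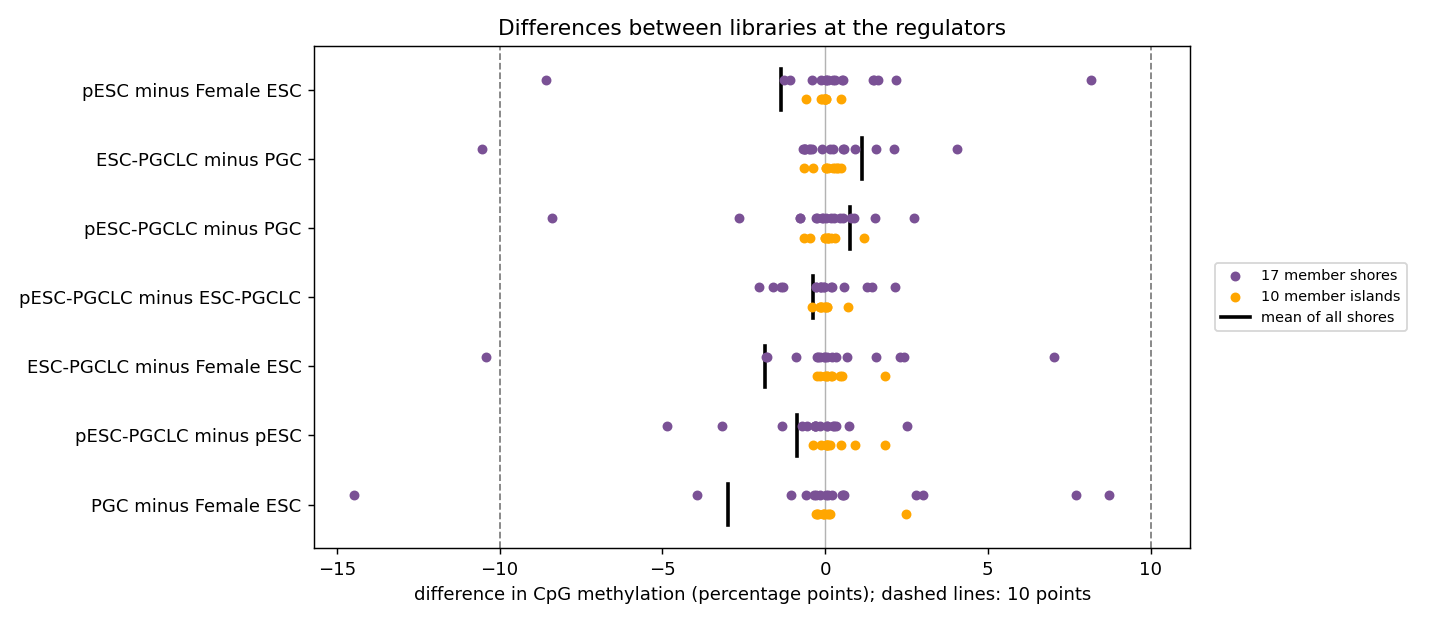
Difference in CpG methylation (percentage points, horizontal axis) for 7 pairs of libraries (vertical axis); purple points are the 17 shores and orange points the 10 islands of the regulators, black bars the mean over all shores, and dashed lines 10 points. Only 3 points, -14.5 and -10.4 at Prdm1 and -10.54 at Esrrb, lie beyond the dashed lines.

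Islands of other genes of the same programmes were mostly as unmethylated, a trait shared by most islands: 91.6% of all islands had a mean under 5%. Of their shores, a mean under 5% was found at 15 of 20 for further pluripotency genes and 10 of 15 for further germ cell specification genes. It was found at 14 of 18 for epiblast genes and at 53.6% of all shores. Of 20 further pluripotency genes, 11 had an island, and 13 of their 14 islands had a mean under 5%; none of these islands and none of their 20 shores was counted in any of the 7 comparisons. The exception was an island of Sall4, a zinc finger partner of Pou5f1 (chromosome 2, 168750087 to 168750425). That island was at 22.2% in Female ESC, 21.0% in pESC, 20.0% in PGC, 29.4% in ESC-PGCLC and 21.4% in pESC-PGCLC. Another Sall4 island (168765751 to 168767131) was between 1.24% in pESC and 1.59% in pESC-PGCLC. Sall4 shores were mixed as well. The shore from 168753928 ran from 34.5% in pESC to 41.1% in Female ESC, and that from 168765272 ran from 1.18% in pESC to 1.59% in pESC-PGCLC. A shore of Nr5a2, a nuclear receptor that can bind Pou5f1 regulatory DNA, ranged from 4.69% in Female ESC to 9.17% in pESC-PGCLC. Of 15 further germ cell specification genes 12 had an island, and 12 of 14 islands had a mean under 5%. Of their 15 shores 2 were lower in PGC than in Female ESC by at least 10 points, a share near that of all shores (15.1%). They were a shore of Cxcr4, the chemokine receptor of migrating germ cells (54.1% against 66.8%), and a shore of Bmp4, the inducing signal (53.9% against 66.03%). The other listed shores of Cxcr4 and Bmp4 were at 6.82% or less in every library. The methylated Bmp4 shore, 1 of the 15, was also counted as higher in ESC-PGCLC (64.0%) than in PGC, where 3.9% of all shores were. The island of Fut4, a fucosyltransferase gene, was counted as lower in ESC-PGCLC (13.5%) than in Female ESC (24.7%). It was 1 of the 14 islands, where 0.95% of all islands were. Of 10 epiblast genes 9 had an island, all 14 islands had a mean under 5%, and no region was counted; the widest ranges were at shores of Foxa2 (2.56% in pESC to 13.0% in ESC-PGCLC) and Eomes (2.55% in Female ESC to 7.80% in pESC).

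Genes of later germ cells gave the contrast. Of 10 such genes 7 had an island, and none of the 7 islands or 12 shores had a mean under 5%. Between Female ESC and PGC, 8 of the 12 shores were at least 10 points lower in PGC, where 15.1% of all shores were. All shores are not matched to this list for starting level. The Female ESC median was 43.0% at the 12 shores and 4.35% over all shores, and a shore under 10% cannot fall by 10 points. Of the 7 islands 1 was at least 10 points lower in PGC, where 2.27% of all islands were. It was that of Sycp3 (41.2% against 54.4%). The island of Sycp1, 1 of the 7, was counted as lower in pESC-PGCLC (21.8%) than in ESC-PGCLC (32.5%), where 0.359% of all islands were. Sycp1 and Sycp3 encode proteins of the meiotic chromosome. Between ESC-PGCLC and Female ESC, 3 of the 12 shores were counted as lower in ESC-PGCLC, where 6.59% of all shores were. In that comparison 1 shore was counted as higher, where 0.892% of all shores were. It was a shore of Slc25a31, a mitochondrial carrier gene (33.7% in ESC-PGCLC, 21.4% in Female ESC). Hormad1, a meiotic chromosome axis gene, had a shore at 49.4% in Female ESC and 25.8% in PGC, and Tdrd1, a piRNA pathway gene, a shore at 65.4% and 49.2%.

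The labels of the lines were checked at the most methylated island of each of 7 genes methylated on the maternal copy. Levels ran from 28.7% to 67.7% in pESC and from 22.7% to 75.02% in pESC-PGCLC. They ran from 1.35% to 36.25% in Female ESC, with a median of 3.25%, and from 1.03% to 20.5% in ESC-PGCLC, with a median of 3.22%. One methylated copy of a pair would give an intermediate level, and most of these islands were below that in both biparental libraries. The islands thus set both parthenogenetic libraries apart from Female ESC and ESC-PGCLC, but not from PGC. They do not by themselves show a normal biparental pattern. Nor were all of them near full methylation in pESC, where the Plagl1 island was at 28.7% and that of Peg10 at 39.1%. A second Airn island was low in every library, at 1.55% in Female ESC, 0.795% in pESC, 3.20% in PGC, 0.974% in ESC-PGCLC and 1.71% in pESC-PGCLC, and a second Zrsr1 island was at 0.871%, 31.1%, 22.6%, 1.76% and 21.5% in the same order. In PGC the 7 islands ran from 24.8% to 61.7%, and later germ cell islands had a median of 22.9%, although germ cells at this stage are known to have lost most such methylation. How many cells of the fetal gonad other than germ cells the PGC library held is not given, and their part in the Esrrb and Prdm1 values was not tested. Among 8 gonadal somatic genes, 9 of 33 shores were at least 10 points lower in PGC than in Female ESC, where 15.1% of all shores were. In the same comparison 1 was higher, where 0.934% of all shores were. The Female ESC median was 8.53% at these 33 shores and 4.35% over all shores, so the starting levels are not matched. The widest ranges were at an island of Lhx9, a homeobox gene of gonad formation (69.9% in Female ESC, 40.5% in PGC), and a shore of the transcription factor gene Tcf21 (46.2% and 23.7%). Of 8 fibroblast (feeder) genes, none of 4 islands and 8 shores was counted in any comparison; the widest ranges were at shores of the matrix gene Fbln2 (5.70% in PGC to 11.9% in Female ESC) and the surface glycoprotein gene Thy1 (2.28% in pESC to 5.31% in PGC).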

How the data were processed

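The submitters' processing notes name Bismark 0.16.3, Bowtie2 and the build mm10. Trimming, region definitions and coverage filters were not given in the sources used here. Each deposited value is the methylated fraction per region and cytosine context, with no read counts, so depth and counting error are unknown; they are printed as percent. Coordinates are as deposited, with an unstated counting base. RefSeq (GRCm38.p6) gave gene ends, starts and overlaps; exons and introns were not used here, and strands were known only for genes with a promoter window. Python 3.11.15 and pandas 2.3.3 were used.

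A region was counted as different (called) at 10 percentage points or more across all islands and shores. The rule was run on simulated data with larger changes than any counted at the regulators and an assumed read depth. That run cannot show how the rule performs near 10 points at the unknown depth of these libraries. Every region of a gene was named; levels are given in each library where the range was at least 5 points or the mean at least 5%, and at each gene's island. Of other lists, up to 2 genes with the widest range were named. Fut4, Sycp1, Sycp3 and Slc25a31 were named beside small counts after their values were seen. For the later germ cell and gonadal somatic lists, counts are given for some comparisons only. The members and lists were chosen with earlier results of these data known. Alternatives were a threshold of 25 points, regions inside genes or within 5 kb, regions listed in both libraries compared, the class shift or CHH level taken out, and leaving out levels of exactly 0 or 1. A median was taken as moved by 1 point or more.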

Additional observations from a re-analysis of the deposited data

How the results depend on the processing

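Of 77 counts and shore medians recomputed under these alternatives, 72 did not move. Some could not move. The 5 kb setting held the same 27 regions, and a count of 0 cannot fall at a stricter threshold. The shore medians were also small beside the 1 point taken as a move, so the number unmoved is no measure of stability. At a threshold of 25 points the count of regulator regions was 0 in place of 1 for ESC-PGCLC against PGC, for ESC-PGCLC against Female ESC and for PGC against Female ESC. With the class shift taken out it was 0 for ESC-PGCLC against Female ESC and for PGC against Female ESC; both counts rest on the Prdm1 shore. Differences at the Prdm1, Esrrb and Tbx3 shores, an alternative chosen after seeing the data, moved by 1 point or more in 12 of 56 cases. No such difference of 10 points or more changed sign. With the class shift taken out 2 small ones did: the deep Esrrb shore, pESC minus Female ESC, went from -0.400 to 0.162 points, and the last Tbx3 shore, pESC-PGCLC minus pESC, from -0.557 to 0.190 points. Shore medians stayed between -0.503 and 0.531 points in all settings run, but the sign of some depended on the setting. The median ran from -0.0117 to 0.382 points for ESC-PGCLC minus Female ESC. It ran from -0.503 to 0.0668 points for pESC-PGCLC minus pESC and from -0.119 to 0.0291 points for pESC-PGCLC minus PGC. No paired analysis was possible because each group has 1 library, which also leaves no replicate to leave out. Depth is unknown, so differences of a few points, and levels of exactly 0, cannot be told from counting error.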

Other observations

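Between 2 and 10 kb away, the nearest listed regions of Pou5f1 lay beyond the higher-coordinate end of the gene. A shore 3880 bp from it (chromosome 17, 35514657 to 35516657) was listed at 0 in Female ESC and was at 2.50% in pESC, 1.52% in PGC and 3.39% in ESC-PGCLC; it was not listed in pESC-PGCLC. An island starting 5881 bp from it (chromosome 17, 35516658 to 35517295) was at 1.88% in Female ESC, 2.77% in pESC, 2.20% in PGC, 2.90% in ESC-PGCLC and 1.71% in pESC-PGCLC. A shore 3940 bp beyond Kit was listed in 3 libraries, at 37.5% in pESC, 10% in PGC and 38.5% in ESC-PGCLC. A shore 5623 bp before Sox2 was at 8.44% in Female ESC, 5.45% in pESC, 4.27% in PGC, 5.46% in ESC-PGCLC and 4.49% in pESC-PGCLC, with Female ESC the highest library and PGC the lowest. These regions were looked up after the data had been seen.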
